A study of Arabidopsis thaliana with 24 samples.

Results

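The response of light-grown wild-type seedlings to abscisic acid (ABA) was read from 6 of the 24 libraries of the study. These are the 3 libraries of wild type in light on ABA and the 3 of wild type in light on mock plates, chosen by their column names with no use of measured values. All 24 libraries hold polyadenylated RNA of whole Arabidopsis thaliana seedlings, accession Columbia-0 (Col-0). The other 18 come from wild type in darkness and from pifq, which carries mutations in 4 phytochrome-interacting factor genes (PIF1, PIF3, PIF4, PIF5), in darkness and in light. They served to estimate the spread between replicates and to test where the response in light differed.

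Both light groups of the wild type grew on Murashige and Skoog medium with 1% sucrose at 22 °C, after 2 days of stratification at 4 °C. Each day had 16 h of white light, at 10 µmol m-2 s-1, and 8 h of dark. After 72 h the seedlings were moved on their nylon mesh to plates with ABA or with ethanol as mock, and they stayed there for 5 days. Per the labels these times hold unless otherwise stated, and the sources used here do not state the ABA dose. The dark-grown wild type was moved after 62 h and treated for 4 days, so light, age and length of treatment cannot be told apart wherever light and darkness are compared. Each group had 3 biological replicates. Because whole seedlings were used, fewer cells of a type and less RNA per cell cannot be told apart in any result below.

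ABA is the hormone by which plants slow growth and close stomata when water is short and by which seeds stay dormant. Soluble receptors of the PYR/PYL/RCAR family bind it and then hold back the clade A protein phosphatases (PP2C), which otherwise keep SnRK2 kinases inactive. The released kinases phosphorylate basic leucine zipper factors (ABF and ABI5), which bind promoter sites with the core ACGTG, known as the ABA-responsive element (ABRE), and switch on genes for dehydrins and other protective proteins.

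Of 32833 genes in the table, 20828 had enough counts to be tested, and 4822 had no count in any of the 24 libraries. Total counts in the 6 libraries lay between 14561012 and 15611032, so 1 count was worth between 0.0647 and 0.0761 CPM, the count scaled to a fixed library total. The treatment took 82.7% of the variance of log2 CPM as the first principal component over these 6 libraries. ABA replicate 2 lay apart from the other ABA libraries on the second, which took 6.34%. Levels below are CPM scaled with TMM factors (trimmed mean of M-values), given for replicates 1, 2 and 3 in that order. They compare libraries within a gene and not genes with each other. A change is the log2 ratio of ABA to mock with its standard error, and p-values come from the quasi-likelihood test of edgeR, adjusted by Benjamini-Hochberg over all genes tested.

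Upstream sequence is shown for genes on which the results turn. The windows are the 200 bases before the annotated gene start in RefSeq's TAIR10.1, written along the gene's own strand with every ACGTG or its reverse complement CACGT in capitals. The first 4 belong to genes that rose steeply, RAB18 (AT5G66400) at chr5:26519448-26519647 (minus strand), LTI65 at chr5:21236821-21237020 (plus strand), and the phosphatase genes HAI2 at chr1:2282829-2283028 (minus strand) and HAI3 at chr2:12608475-12608674 (plus strand). The window of RAB18 overlaps the neighbouring gene AT5G66410. The last 2 are another phosphatase gene that rose, HAI1 at chr5:23896940-23897139 (minus strand), and a receptor gene that fell, PYL4 at chr2:16049718-16049917 (plus strand).
RAB18: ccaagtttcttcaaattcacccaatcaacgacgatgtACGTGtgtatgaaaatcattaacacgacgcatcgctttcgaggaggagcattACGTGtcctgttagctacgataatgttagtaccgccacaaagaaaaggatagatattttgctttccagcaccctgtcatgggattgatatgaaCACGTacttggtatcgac
LTI65: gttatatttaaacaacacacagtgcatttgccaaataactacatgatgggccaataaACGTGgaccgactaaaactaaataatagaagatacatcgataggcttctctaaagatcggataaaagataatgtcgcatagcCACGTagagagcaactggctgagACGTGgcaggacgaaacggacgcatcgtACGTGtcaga
HAI2: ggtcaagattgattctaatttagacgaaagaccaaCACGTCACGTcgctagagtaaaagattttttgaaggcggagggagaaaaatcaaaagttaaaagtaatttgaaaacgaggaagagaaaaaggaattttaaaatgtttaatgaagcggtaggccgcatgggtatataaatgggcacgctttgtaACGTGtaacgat
HAI3: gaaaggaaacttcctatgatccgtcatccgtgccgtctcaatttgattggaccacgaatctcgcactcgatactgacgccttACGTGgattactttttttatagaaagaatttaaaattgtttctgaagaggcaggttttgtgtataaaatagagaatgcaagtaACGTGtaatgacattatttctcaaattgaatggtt
HAI1: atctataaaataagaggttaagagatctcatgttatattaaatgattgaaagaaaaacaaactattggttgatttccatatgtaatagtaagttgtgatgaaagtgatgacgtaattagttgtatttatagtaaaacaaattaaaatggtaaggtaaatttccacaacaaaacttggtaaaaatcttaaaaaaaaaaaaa
PYL4: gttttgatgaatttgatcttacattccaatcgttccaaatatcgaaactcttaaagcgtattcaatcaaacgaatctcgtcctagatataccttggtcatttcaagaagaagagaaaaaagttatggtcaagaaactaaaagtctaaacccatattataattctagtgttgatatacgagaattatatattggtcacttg
The core was found at 3 places in the window of RAB18, 4 in that of LTI65, 3 in that of HAI2 and 2 in that of HAI3, and at none in the windows of HAI1 and PYL4. Over all 20695 tested genes with such a window, 21.0% held it on either strand. The share was 38.4% (516 of 1345) among genes that rose at least 2-fold and 47.8% (276 of 577) among those that rose at least 4-fold, against 20.4% (425 of 2087) among those that fell at least 2-fold. Some gene lists with few called members also held it often, at 42.1% for the light-harvesting antenna, 40.9% for photosystems and the Calvin cycle, and 66.7% for clock genes. Others, such as nitrate (18.2%) and chlorophyll synthesis (23.1%), were near the share of all windows. The longer palindrome CACGTG, the G-box, which contains the core on both strands, stood in 6.62% of all windows. Its share was 15.8% among genes that rose at least 2-fold and 4.55% among those that fell as much. CCGAC, the core of the drought-responsive element, was in 10.9% of all windows and in 12.4% of those of genes that rose at least 2-fold. TTGAC, the core of the site bound by WRKY factors, was in 39.2% of all windows and in 47.2% of those of genes that fell at least 2-fold. A match of letters is a description and says nothing of binding.

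ABA changed a large part of the transcriptome. Of the 20828 genes, 4380 rose (21.0%) and 3947 fell (19.0%, or 40.0% in either direction) at an adjusted p under 0.05. The falls were the deeper: the median log2 change was 0.62 among genes that rose and -1.07 among genes that fell, and 0.02 over all genes tested. At least a 2-fold change was called for 1352 genes upward (6.49%) and 2087 downward (10.0%), and at least a 4-fold change for 578 (2.78%) and 894 (4.29%). The groups did not overlap for 52.0% of all genes tested, and for 96.7% of the genes called. Groups that lie apart, where given below, therefore add little to a call. The split of calls depends on scaling: with library totals alone it was 2901 higher and 5381 lower, and the median of all genes moved to -0.10.

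**Figure D1:**
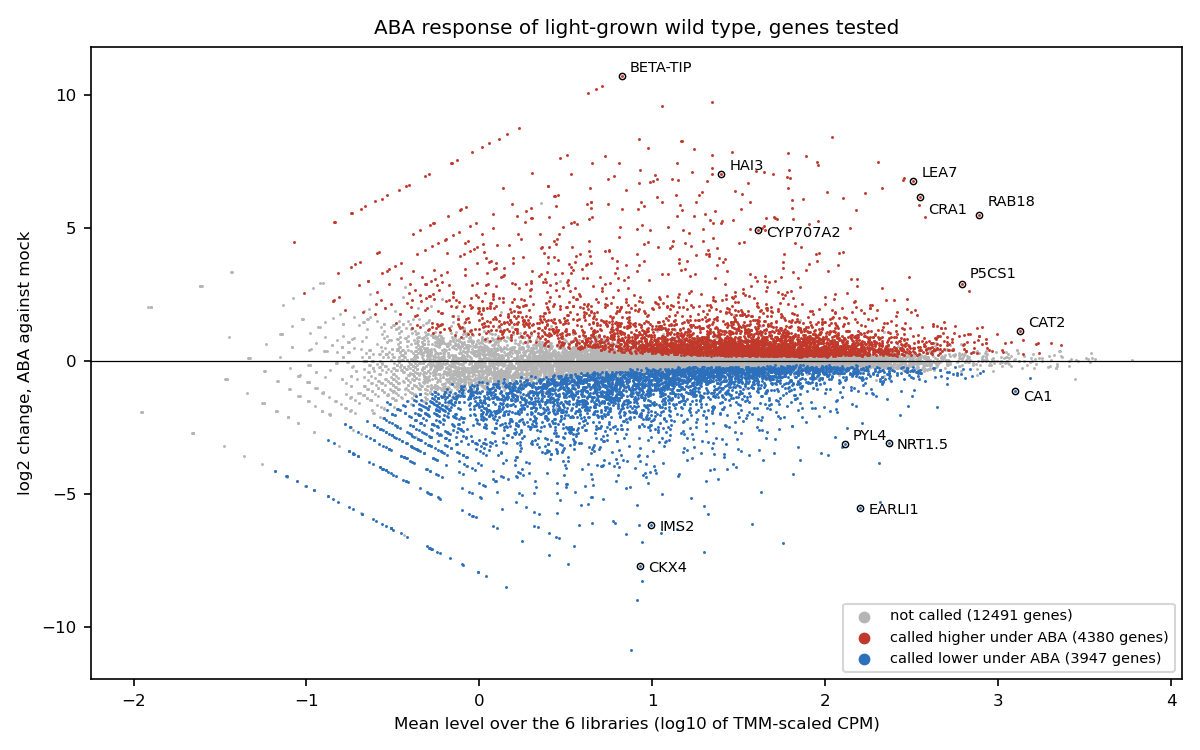
Log2 change (ABA against mock, vertical axis) of each tested gene with a count in the 6 libraries, against its mean level over the 6 libraries in log10 CPM (horizontal axis), with genes called higher and lower in colour and some genes labelled. HAI3, RAB18 and LEA7 stand among the steep rises, and CKX4, IMS2 and EARLI1 among the steep falls. Tested genes with no count in these 6 libraries are not drawn.

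The genes with the firmest rise belonged to several pathways. SRG1, an oxidoreductase gene named for senescence, stood at 44.7, 52.9 and 50.6 CPM under ABA and 4.5, 4.63 and 5.3 CPM in mock (log2 change 3.36 ± 0.10, adjusted p = 3.59e-15). C/VIF1, an inhibitor of the invertases that split sucrose, stood at 114, 122 and 119.8 CPM under ABA and 11.1, 11.4 and 12.5 CPM in mock (log2 change 3.34 ± 0.11, adjusted p = 1.51e-14). Every ABA library was far above every mock library for both. GPAT2, an acyltransferase gene, rose by 4.60 ± 0.18, and the amino acid permease gene AAP1 rose by 2.27 ± 0.10 on the log2 scale. MSL6, which encodes a mechanosensitive channel, stood at 123, 118 and 118 CPM under ABA and 38.5, 38.7 and 38.6 CPM in mock, a smaller change (1.63 ± 0.08) between very even groups. The remaining genes of the 12 with the lowest p were CYP707A2, HAI3, HB-7 and HAI1, described below, the ubiquitin ligase gene AIRP2 (2.58), and the transcription factor genes FBH3 (2.49) and GBF3 (2.61).

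Among the 12 firmest falls, CKX4, a cytokinin oxidase gene, led with 3 counts in the 3 ABA libraries together against 765 in mock. That is a ratio of 232 (95% interval 79.2 to 1129, counting error only). CRK30, a cysteine-rich receptor kinase gene, had 2 counts against 787, a ratio of 358 (98.9 to 2964). LACS1, a long-chain acyl-CoA synthetase gene of cuticular lipid synthesis, went from 82.1, 103 and 83.9 CPM in mock to 19.8, 22.8 and 17.7 CPM under ABA (log2 change -2.15 ± 0.12, adjusted p = 1.57e-11). PSK4, a precursor of the growth peptide phytosulfokine, was at 11.5, 11.9 and 13 CPM under ABA and 76.5, 65.9 and 63.1 CPM in mock (-2.50). MIPS3, an inositol phosphate synthase gene, fell (-3.34 ± 0.21), the xylanase gene RXF12 (-3.95 ± 0.24), and the monolignol glycosyltransferase gene UGT72E2 (-3.08 ± 0.19). The kinase gene IOS1 (-2.94), the glutaredoxin gene GRXS13 (-2.66), CYP735A2, PYL4 and IMS2 completed the 12. For each of the 24 genes the 2 groups of 3 libraries lay apart, which the rule for naming them required.

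By share of counts, the largest gain was that of RAB18, a dehydrin long used as a marker of ABA action, at 1394, 1671 and 1462 CPM under ABA and 29.9, 21.7 and 49.3 CPM in mock (log2 change 5.49 ± 0.52, adjusted p = 1.2e-07). The next largest were the catalase CAT2 (AT4G35090; 1.11), the lipid transfer protein LTP2 (2.61), the proline enzyme P5CS1, the nitrate reductase NIA2 (0.66), the catalase CAT3 (0.58), the fatty acid desaturase FAD2 (0.65) and GLDP1 (0.78), a subunit of glycine decarboxylase in photorespiration. CA1, a carbonic anhydrase of chloroplasts, lost the most, from 2012, 1489 and 1632 to 797, 664 and 894 CPM (log2 change -1.12 ± 0.35, adjusted p = 0.0153). The small Rubisco subunit RBCS3B (-0.63), the tonoplast aquaporin GAMMA-TIP (-1.75), the nitrate transporter NRT1.5 (-3.09), the germin GER3 (-3.83), the cell wall protein EARLI1 (-5.53), the ferredoxin reductase FNR2 (-0.88) and DIN10 (-0.59), of the raffinose synthase family, followed. EARLI1 was at 9.96, 5.61 and 4.56 CPM under ABA and 294, 367 and 276 CPM in mock, a gap of more than an order of magnitude in every library. The calls of CA1, NIA2 and DIN10 were lost when single libraries were left out (CA1 without ABA replicate 2 or mock replicate 1, adjusted p = 0.0615 and 0.0556; NIA2 without mock replicate 2, 0.0742; DIN10 without ABA replicate 1 or 3 or mock replicate 3, 0.0832 to 0.12, and in both fits to the compared libraries).

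Most genes of ABA perception fell. Of 9 receptor genes tested, 7 were lower and none higher, with a median log2 change of -0.93 beside 0.02 for all genes. PYL4 stood at 23.4, 33.5 and 22 CPM under ABA and 277, 238 and 184 CPM in mock (log2 change -3.14 ± 0.18, adjusted p = 4.27e-11), and PYL6 at 0.412, 0.291 and 0 CPM under ABA and 8.32, 8.99 and 8.47 CPM in mock (log2 change -5.11 ± 0.51, adjusted p = 8.62e-08). Their ABA libraries all lay far below their mock libraries. PYL5 fell (-1.94 ± 0.20), RCAR3 (-0.95 ± 0.10), PYL2 (-0.93 ± 0.25), PYL1 (-0.67 ± 0.12) and PYR1 (-0.62 ± 0.16). PYL7 (0.25 ± 0.24, adjusted p = 0.433) and RCAR1 (-0.29 ± 0.15, 0.137) did not pass the test, although RCAR1 was called lower with library totals alone (adjusted p = 0.0255). Another 5 receptor genes, PYL3 and PYL10 to PYL13, had at most 4 counts in any of the 6 libraries and were not tested.

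The phosphatases that the receptors hold back moved the other way: all 9 clade A PP2C genes rose, with a median of 3.06. HAI3 stood at 45.9, 52.2 and 50.7 CPM under ABA and 0.269, 0.0661 and 0.776 CPM in mock (log2 change 7.02 ± 0.28, adjusted p = 2.21e-13). HAI2 was at 65.9, 82.3 and 87.6 CPM under ABA and 0.201, 0.595 and 0.841 CPM in mock (7.14 ± 0.34) and HAI1 at 86, 85 and 88.9 CPM under ABA and 2.89, 2.64 and 3.04 CPM in mock (4.92 ± 0.21). The mock libraries of HAI2 and HAI3 had at most 13 counts each, so their steep ratios rest on few counts in mock. AHG1, a phosphatase gene known from seeds, went from 0, 0.198 and 0.129 to 2.2, 3.94 and 3.5 CPM (4.77 ± 0.54). PP2CA rose by 3.06 ± 0.16, ABI2 by 2.76 ± 0.15, ABI1 by 2.09 ± 0.14, HAB1 by 1.96 ± 0.26 and HAB2 by 0.90 ± 0.11. All 9 had their ABA libraries above their mock libraries. Groups lay apart for 96.7% of all genes called and 52.0% of all genes tested.

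The kinases in the middle of the pathway were mixed, with 5 of 10 SnRK2 genes higher (50%) and 2 lower (20%), median 0.20. Over all genes tested these shares were 21.0% and 19.0%. OST1, which acts in guard cells, stood at 61.9, 63.9 and 60.8 CPM under ABA and 25.9, 21.7 and 26.7 CPM in mock (log2 change 1.33 ± 0.11, adjusted p = 3.61e-09), the groups well apart. Of its close relatives SNRK2.2 and SNRK2.3, the first did not pass (0.05 ± 0.14, adjusted p = 0.819) and the second passed narrowly (0.35 ± 0.13, 0.04). The call of SNRK2.3 was lost with library totals alone (0.211), without a filter on low counts, in the fit to the compared libraries alone, and when ABA replicate 2 or 3 or mock replicate 1 or 3 was left out (0.0608 to 0.207). SNRK2.9 rose by 1.5 ± 0.32, SNRK2.10 by 0.55 ± 0.10 and SNRK2.1 by 0.41 ± 0.07. SNRK2-8, an osmotic stress kinase, stood at 6.04, 5.76 and 7.91 CPM under ABA and 32.6, 24.6 and 23.9 CPM in mock (log2 change -2.04 ± 0.18, adjusted p = 1.09e-08), and SNRK2.5 fell (-1.07 ± 0.32). SNRK2.4 (-0.15 ± 0.09) and SNRK2.7 (-0.22 ± 0.42) did not pass, SNRK2.4 being called lower with library totals alone (0.0209).

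**Figure D2:**
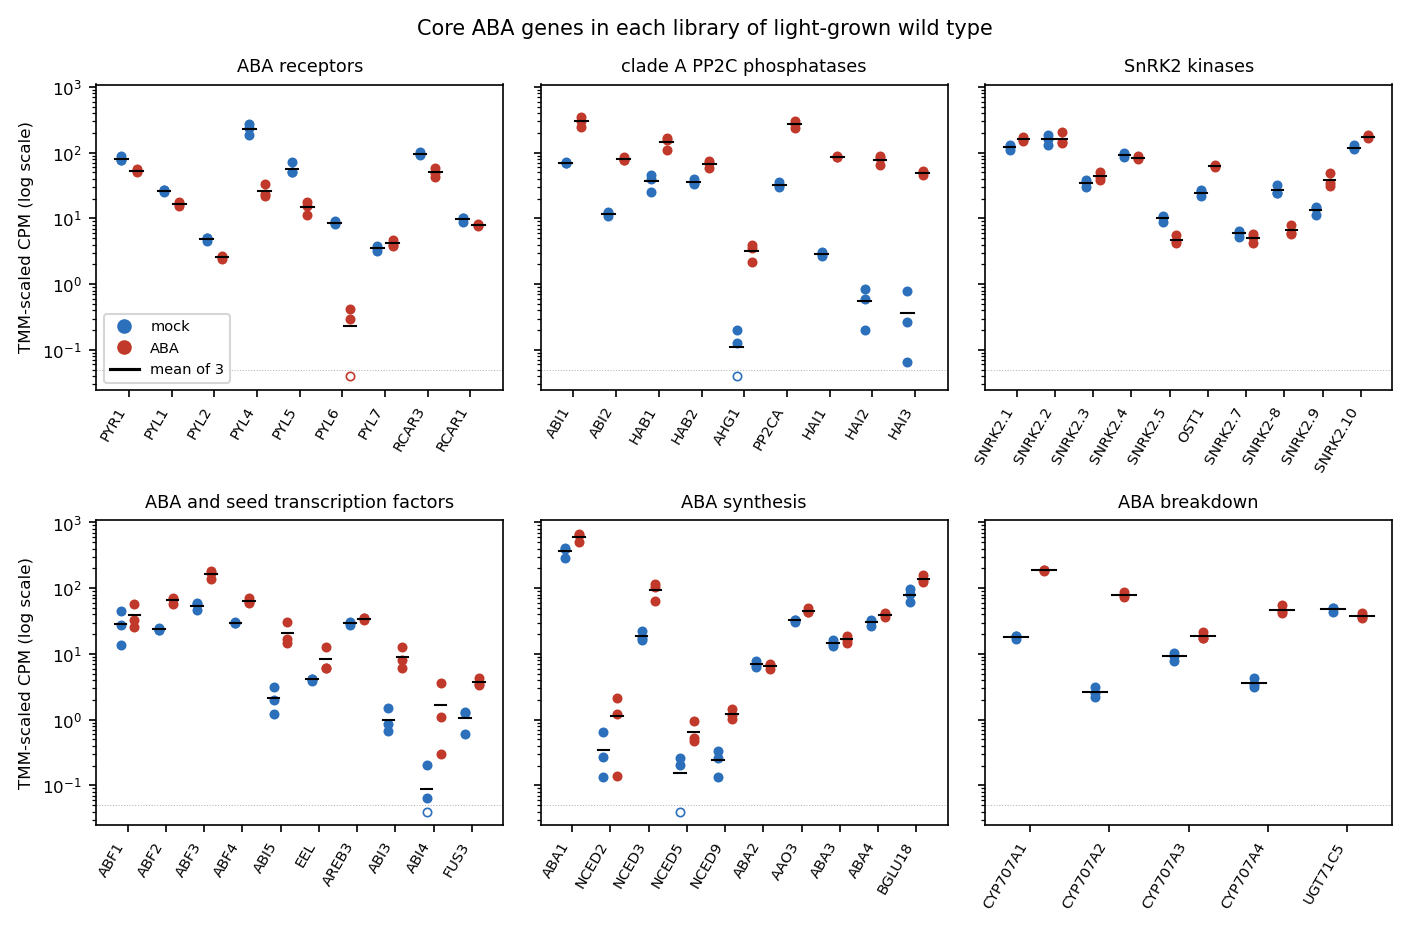
Level in CPM on a log axis of genes of ABA perception, signalling, synthesis and breakdown in each of the 6 libraries, ABA and mock in separate colours. Hollow points below the dotted line are libraries with 0 counts. The receptor genes PYL4, PYL5 and PYL6 have their ABA points below their mock points, while the phosphatase genes have them above.

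Among transcription factors of the pathway 8 of 10 tested rose and none fell, with a median of 1.54. ABI5, a basic leucine zipper factor of germinating seeds, stood at 17, 30.3 and 14.8 CPM under ABA and 1.21, 3.17 and 2.01 CPM in mock (log2 change 3.27 ± 0.46, adjusted p = 1.53e-05), and the seed regulator ABI3 at 6.18, 12.7 and 7.99 CPM under ABA and 0.671, 0.859 and 1.49 CPM in mock (log2 change 3.14 ± 0.55, adjusted p = 0.000154). ABA replicate 2 was highest for both, and the groups did not overlap. The factors of vegetative tissue rose less and more evenly, ABF3 by 1.60 ± 0.15, ABF2 by 1.48 ± 0.11 and ABF4 by 1.09 ± 0.09. FUS3, a further seed regulator, rose by 1.81 ± 0.32. ABI4 rose by 4.14 ± 1.08 from at most 3 counts per mock library, and its call was lost without ABA replicate 2 (adjusted p = 0.056). AREB3 passed with the smallest change, 0.22 ± 0.07, and lost its call in 8 of the alternatives tried, library totals alone (0.344) among them. EEL (1.03 ± 0.47, 0.0893) and ABF1 (0.43 ± 0.41, 0.429) did not pass, although EEL passed with DESeq2 and in 2 fits to the compared libraries alone (0.0256 to 0.0363). LEC1, LEC2, NF-YB6 and DPBF2, which act in embryos, had too few counts to be tested.

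Of 15 homeodomain factors of class I 5 were higher (33.3%) and 5 lower (33.3%), beside 21.0% and 19.0% of all genes tested (list median 0.20). Leaving out single libraries gave 3 or 4 lower, 3 of them without ABA replicate 1 or 2 or mock replicate 2 or 3. HB-7 (AT2G46680, ATHB7) stood at 257, 219 and 243 CPM under ABA and 15.1, 11.2 and 15.8 CPM in mock (log2 change 4.09 ± 0.17, adjusted p = 2.46e-13), and its closest relative HB-12 rose by 2.83 ± 0.22. HB21, described in bud dormancy, went from 0.336, 0.0661 and 0.0647 to 11, 18.9 and 11.9 CPM (6.43 ± 0.40), with at most 5 counts in any mock library. HB-1 rose by 0.96 ± 0.07. All ABA libraries of these 4 genes lay above their mock libraries, and groups lay apart for 96.7% of all genes called. Of those that fell, HB20 (-1.38 ± 0.22) and HB-3 (-1.12 ± 0.22) were named after their values were seen.

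Genes that make ABA and genes that break it down rose together. Of 10 synthesis genes 7 were higher and none lower (median 0.76). NCED3, the dioxygenase that cleaves the carotenoid precursor in stressed leaves, stood at 63.5, 104 and 118 CPM under ABA and 16.4, 17.3 and 22.4 CPM in mock (log2 change 2.34 ± 0.33, adjusted p = 1.28e-05). ABA1, the zeaxanthin epoxidase, rose by 0.73 ± 0.15 and the aldehyde oxidase AAO3 by 0.49 ± 0.12. NCED5 (2.03 ± 0.55) and NCED9 (2.29 ± 0.66) rose from under 1 CPM. ABA4 (0.39 ± 0.09) and BGLU18 (0.80 ± 0.29), a glucosidase that frees ABA from its conjugate, also passed. With library totals alone ABA4 (adjusted p = 0.0674) and BGLU18 (0.0843) lost their calls, and BGLU18 lost it also in leave-one-out fits and without a count filter (0.0508 to 0.145). NCED2 (0.0544), ABA2 (0.726) and ABA3 (0.213) did not pass. NCED2 was called in 4 of the alternatives (0.00397 to 0.0498), the lowest of these without ABA replicate 1.

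Breakdown moved further. All 4 CYP707A genes, which encode the ABA 8'-hydroxylases, rose. CYP707A2 stood at 77.7, 86.9 and 72.6 CPM under ABA and 3.16, 2.18 and 2.59 CPM in mock (log2 change 4.90 ± 0.18, adjusted p = 2.19e-14), CYP707A1 at 192, 182 and 192 CPM under ABA and 17.1, 18.9 and 18.4 CPM in mock (3.38 ± 0.19) and CYP707A4 at 44.4, 55.9 and 41.8 CPM under ABA and 4.36, 3.11 and 3.49 CPM in mock (3.69 ± 0.19). The libraries of each group were close together and the groups lay far apart. CYP707A3 rose by 1.04 ± 0.21, and UGT71C5, which conjugates ABA to glucose, fell (-0.34 ± 0.09). Summed over the 5 breakdown genes the level was 4.57 times that of mock, beside 1.73 times for the synthesis genes.

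The protective proteins at the end of the pathway rose nearly throughout: 17 of 19 genes for dehydrins, LEA proteins and cold or drought proteins were higher and none lower, with a median of 3.14. LTI65, also called RD29B, stood at 643, 732 and 672 CPM under ABA and 8.59, 7.2 and 19.4 CPM in mock (log2 change 5.86 ± 0.44, adjusted p = 4.51e-09), and LEA4-5 at 121, 152 and 105 CPM under ABA and 1.81, 1.65 and 2.26 CPM in mock (log2 change 6.03 ± 0.42, adjusted p = 1.72e-09). LTI30, a dehydrin, rose by 3.07 ± 0.25 and SAG21 by 1.7 ± 0.14. LEA7, KIN1 and COR15B fall outside the naming rule and were picked after their values were seen. LEA7 was at 609.7, 645 and 652 CPM under ABA and 2.55, 2.84 and 12.1 CPM in mock (6.76) and KIN1 at 134, 156 and 151 CPM under ABA and 1.01, 1.52 and 3.95 CPM in mock (6.08). COR15B, a chloroplast protein of cold acclimation, was at 4.26, 9.55 and 2.36 CPM under ABA and 1.41, 15.2 and 8.47 CPM in mock and did not pass (-0.63 ± 0.65), its groups overlapping. Mock replicate 3 was the highest mock library for RAB18, LTI65, LEA7 and KIN1.

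Osmolyte genes rose more often than they fell, with 9 of 16 higher and 4 lower (median 0.73). P5CS1, the rate-limiting enzyme of proline synthesis, stood at 1153, 1044 and 1046 CPM under ABA and 95.3, 156 and 189.7 CPM in mock (log2 change 2.88 ± 0.19, adjusted p = 1.3e-10). SUS3, a sucrose synthase gene, was at 213, 236 and 208 CPM under ABA and 18.3, 14.4 and 22.1 CPM in mock (3.59 ± 0.18). GolS2 (4.81 ± 0.38), which makes galactinol for raffinose, and STS (4.75 ± 0.50) rose from about 2 CPM or less in mock. Among the 4 that fell were both proline dehydrogenase genes, ERD5 (-0.73) and AT5G38710 (-1.80), which break proline down and were named after their values were seen.

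Genes of the maturing seed had the largest median of the 44 lists, 6.64, with 16 of 18 tested genes higher and none lower. Summed over the list, the 3 ABA libraries stood at 706, 3677 and 1493 CPM and the 3 mock libraries at 10.4, 7.66 and 59.7 CPM. The spread within each group was wide, ABA replicate 2 being about 5 times as high as replicate 1 and mock replicate 3 well above the other mock libraries. The groups did not overlap. TIP3;1, an aquaporin of protein storage vacuoles, stood at 68.7, 183 and 110.2 CPM under ABA and 0.537, 0.727 and 2.72 CPM in mock (log2 change 6.49 ± 0.68, adjusted p = 4.07e-07), and the oil body proteins OLEO1 at 51.6, 196 and 110.3 CPM under ABA and 0.604, 0.33 and 2.01 CPM in mock and OLEO2 at 177, 355 and 218 CPM under ABA and 2.15, 1.19 and 7.31 CPM in mock. AtMT4b, a seed metallothionein, had 937 counts under ABA and 1 in mock, a ratio of 1029 (184 to 40681). BETA-TIP had 549 counts against 0, at least 201-fold higher, ATECP31 390 against 0, at least 143-fold higher, and the 2S albumin SESA3 418 against 0, at least 153-fold higher, each with 3 counts over the mock group as the floor. Of the storage proteins, the cruciferin CRA1 was at 158, 1349 and 569.9 CPM under ABA and 3.02, 1.59 and 24.3 CPM in mock (log2 change 6.16 ± 1.15, adjusted p = 0.000294), so ABA replicate 2 carried most of its level. CRU2 did not pass (0.0595). These storage genes were named after their values were seen. Without ABA replicate 2, 14 of the 18 were called, and leaving out single libraries gave 14 to 17. With replicate as a block, fitted to the compared libraries, 11 were called. What part remaining seed tissue has in these values was not tested.

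**Figure D3:**
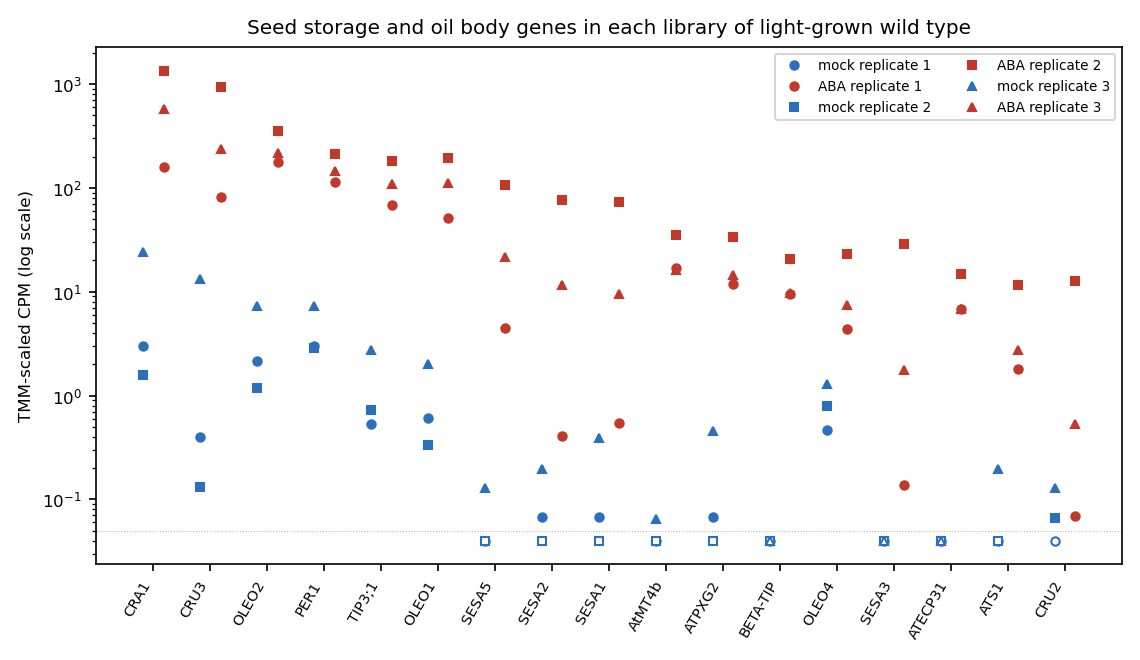
Level in CPM on a log axis of the seed storage and oil body genes in each of the 6 libraries, without the member that had no count. Hollow points below the dotted line are libraries with 0 counts. ABA replicate 2 is the highest library for the storage proteins, and all libraries of OLEO1, OLEO2 and TIP3;1 under ABA lie above those in mock.

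Genes of dividing cells fell. Of 12 mitosis genes 11 were lower and none higher (median -1.61), and of 11 genes of DNA replication and S phase 9 were lower and none higher (median -0.73). SYP111 (KNOLLE), the syntaxin of the forming cell plate, stood at 4.05, 3.86 and 3.88 CPM under ABA and 17.9, 17.4 and 14.9 CPM in mock (log2 change -2.09 ± 0.20, adjusted p = 4.78e-08). The B-type cyclin gene CYC1BAT (CYCB1;2) stood at 2.13, 4.88 and 3.96 CPM under ABA and 17.3, 16.2 and 11.3 CPM in mock (-2.03 ± 0.25), CYCB2;2 fell (-2.19 ± 0.28) and CYCA1;1 (-1.75 ± 0.25). MCM3, a subunit of the replicative helicase, was at 10.2, 10.3 and 9.28 CPM under ABA and 17.8, 22.5 and 21.3 CPM in mock (-1.04 ± 0.10), MCM6 fell (-1.01 ± 0.15), MCM5 (-0.81 ± 0.13) and the sliding clamp PCNA2 (-0.77 ± 0.13). For each of these 8 genes the groups lay apart, as they did for 96.7% of all genes called. The summed mitosis level ran from 28.1 to 42.5 CPM under ABA and from 88.7 to 110.5 CPM in mock. The histone list, gathered by product name, also took in LEC1, which is not a histone and was not tested. Of its 44 tested genes 21 were lower and 5 higher (median -0.39). Its summed level was 1.06 times mock, the groups overlapping. HIS1-3, the drought-induced linker histone, was among the 5 that rose and stood at 286, 269 and 244 CPM under ABA and 36.6, 35.7 and 43.1 CPM in mock (log2 change 2.79 ± 0.19, adjusted p = 4.9e-10).

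Cytokinin genes fell in part. Of 8 type-A response regulators, which cytokinin induces and which damp its signal, 5 were lower and none higher (median -1.60): RR5 stood at 3.37, 2.55 and 2.81 CPM under ABA and 17.6, 14.9 and 16.4 CPM in mock (log2 change -2.48 ± 0.17, adjusted p = 2.74e-10), ARR6 at 4.12, 3.72 and 3.04 CPM under ABA and 19.1, 14.9 and 16.4 CPM in mock (-2.20 ± 0.20), ARR7 fell (-2.26 ± 0.31) and ARR4 (-1.12 ± 0.14). In the cytokinin enzymes, 5 of 12 were lower and 2 higher. CYP735A2, which hydroxylates cytokinins to the trans-zeatin form, went from 18.3, 17.6 and 13.3 to 0.275, 0.291 and 0.0761 CPM (log2 change -6.19 ± 0.34, adjusted p = 1.57e-11), and IPT5, a synthesis gene, from 6.98, 8.26 and 8.73 to 0.412, 0.437 and 0.761 CPM (-3.89 ± 0.43). The oxidase gene CKX7 rose by 1.21 ± 0.21, opposite to CKX4.

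For auxin, 7 of 18 synthesis and transport genes were lower and 2 higher (median -0.24). TAA1, which makes the auxin precursor, stood at 6.11, 6.7 and 6.47 CPM under ABA and 16.2, 18.1 and 13.5 CPM in mock (-1.31 ± 0.18). YUC8, of the next step, fell (-1.35 ± 0.20). YUC5 had 3 counts under ABA against 55 in mock, a ratio of 16.7 (5.42 to 83.4), and the influx carrier LAX3 fell (-1.18 ± 0.17). The 2 higher calls, PIN3 and PIN4, were lost with library totals alone, in the fit to the compared libraries, and without ABA replicate 3 or mock replicate 2. Of 17 gibberellin genes 6 were higher (35.3%) and 4 lower (23.5%), beside 21.0% and 19.0% of all genes tested (list median 0.20). With library totals alone 5 were higher and 5 lower (median 0.07), and 2 were lower without ABA replicate 1 or mock replicate 1. RGL3, a DELLA repressor, stood at 18.1, 26.8 and 22.1 CPM under ABA and 7.52, 7.66 and 8.99 CPM in mock (log2 change 1.47 ± 0.17, adjusted p = 7.41e-07), and all 3 receptors rose, GID1C by 0.79 ± 0.14, GID1A by 0.73 ± 0.13 and GID1B by 0.56 ± 0.11.

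Wall and growth genes fell more often than they rose. Of 62 SAUR genes, small auxin-induced genes of cell expansion, 30 were lower and 10 higher (median -0.86). AT4G34770 stood at 0.275, 0.874 and 0.456 CPM under ABA and 7.38, 4.23 and 4.92 CPM in mock (log2 change -3.35 ± 0.39, adjusted p = 5.96e-07), while AT3G12955 (3.13 ± 0.34), AT2G46690 (1.46 ± 0.12) and AT3G60690 (1.35 ± 0.13) rose. Of 17 alpha-expansins, which loosen walls, 9 were lower and 1, EXPA11, higher. EXPA1 stood at 50.1, 37.6 and 48.7 CPM under ABA and 187, 161 and 153 CPM in mock (log2 change -1.88 ± 0.16, adjusted p = 8.11e-09), EXPA8 fell (-1.78 ± 0.20), EXPA14 (-3.30 ± 0.28) and EXPA17 (-3.56 ± 0.42). Arabinogalactan proteins, glycoproteins of the cell surface, had 13 of 27 lower and 2 higher, with AGP22 at 1.44, 1.17 and 4.56 CPM under ABA and 16.9, 22.7 and 19 CPM in mock (-3.05 ± 0.46), AGP18 at -1.63 and AGP4 at -2.52, against a rise of 1.13 ± 0.18 for AGP25. Of 26 XTH enzymes, which cut and join xyloglucan, 6 were higher (23.1%) and 8 lower (30.8%), beside 21.0% and 19.0% of all genes tested. XTH25 stood at 136, 132 and 142 CPM under ABA and 9.94, 3.77 and 7.44 CPM in mock (log2 change 4.28 ± 0.33, adjusted p = 5.35e-09), a steep rise, XTH32 rose by 1.29 ± 0.20 and XTH11 by 1.41 ± 0.21, while XTH8 fell (-1.72 ± 0.24). Among 12 cellulose synthesis genes CESA1 of primary walls rose by 0.47 ± 0.08, and the 3 synthases of secondary walls, CESA4 (-1.31 ± 0.24), IRX3 (-1.34 ± 0.28) and IRX1 (-1.25 ± 0.24), fell together. Summed levels did not all fall. They were 0.66 times mock for alpha-expansins, 0.82 for arabinogalactan proteins and 1.18 for XTH enzymes, the groups apart in each. For SAUR genes (1.09) and cellulose synthesis (1.02) the groups overlapped.

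**Figure D4:**
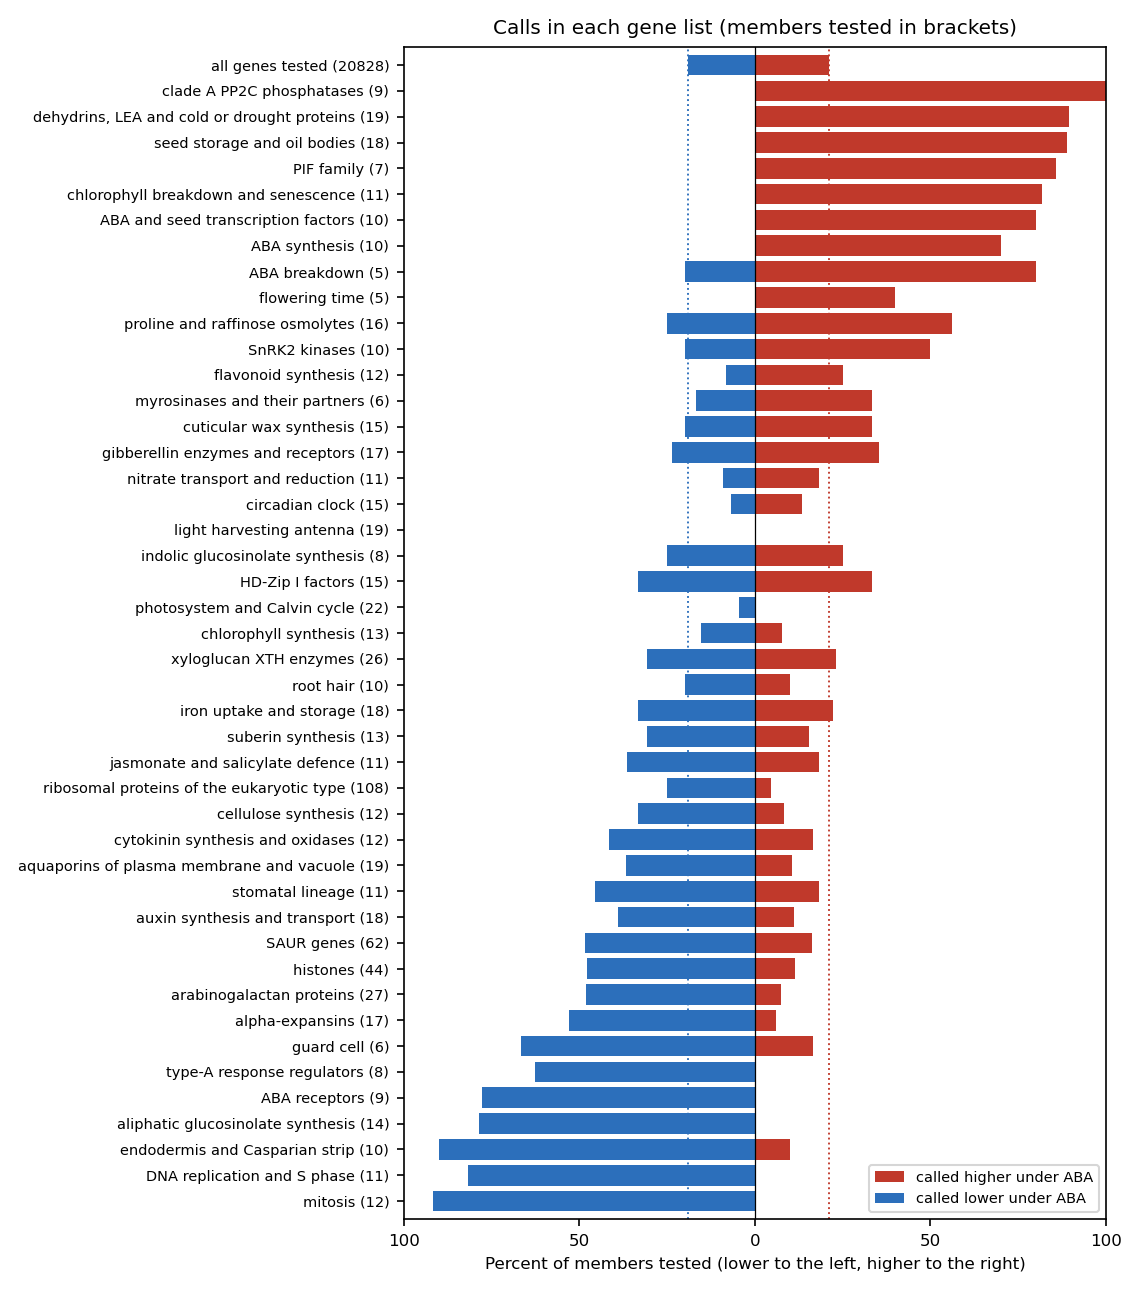
Percent of tested members of each of the 44 gene lists called higher (right) and lower (left) under ABA in light-grown wild type, beside all genes tested (21.0% and 19.0%). The phosphatase, seed and dehydrin lists lie almost wholly to the right, and the mitosis, endodermis, DNA replication, aliphatic glucosinolate and receptor lists to the left.

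Lists that hold root genes differed in how many members fell. The share lower was 90% in the endodermis list, beside 19.0% of all genes tested. It was 20% for root hair, 33.3% for iron uptake, 9.09% for nitrate and 36.8% for aquaporins. The iron, nitrate and aquaporin lists were not drawn up by organ. Of 10 endodermis genes 9 were lower (median -1.67). CASP1, a protein that places the Casparian strip, stood at 6.11, 5.03 and 13.6 CPM under ABA and 40.3, 52.1 and 40.3 CPM in mock (log2 change -2.43 ± 0.33, adjusted p = 7.85e-06), CASP2 at 2.13, 2.84 and 6.24 CPM under ABA and 18.9, 24.5 and 19.7 CPM in mock (-2.51 ± 0.35), and CASP4 fell (-2.77 ± 0.40). ABA replicate 3 was the highest ABA library for each, and it still lay below every mock library. The 1 higher call, SCR, had overlapping groups and was lost with RLE factors or totals alone. Root hair genes showed little: 1 of 10 was higher and 2 lower. GL2, which represses hair fate, stood at 3.37, 4.88 and 4.18 CPM under ABA and 21.3, 19.5 and 16.4 CPM in mock (-2.20 ± 0.22), the hair regulator RSL2 fell (-1.84 ± 0.49) and the wall protein PRP1 rose by 1.98 ± 0.53. In iron uptake 6 of 18 were lower (33.3%) and 4 higher (22.2%), beside 19.0% and 21.0% of all genes tested. IRT1, the iron transporter of root epidermis, went from 30.3, 20.9 and 15 to 0.275, 1.17 and 0.609 CPM (log2 change -5.01 ± 0.59, adjusted p = 1.63e-06), and FRU (FIT), the factor that activates it, from 13.6, 13.7 and 15.7 to 0.687, 0.437 and 0.456 CPM (-4.74 ± 0.52). AT3G13610, annotated as an oxygenase of the coumarin pathway, fell (-3.83 ± 0.41), and the seed ferritin FER2 rose by 3.83 ± 0.50. NRT1.5, which loads nitrate into the xylem, stood at 50.2, 43.1 and 53.3 CPM under ABA and 422, 436 and 390.1 CPM in mock (log2 change -3.09 ± 0.28, adjusted p = 3.44e-08). It was the 1 gene lower of 11 in nitrate transport and reduction, in which NRT1.7 and NIA2 were higher; other fits and omissions gave 1 to 4 lower and 1 to 3 higher. Aquaporins had 7 of 19 lower and 2 higher, GAMMA-TIP at 165, 162 and 285 CPM under ABA and 733, 698 and 621 CPM in mock (-1.75 ± 0.22), TIP2;3 at -2.55 and PIP2;4 at -2.77, with PIP2;5 rising by 1.54 ± 0.20. Only 1 aquaporin was higher with library totals alone or without ABA replicate 3 or mock replicate 2 or 3.

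In the leaf epidermis, 5 of 11 stomatal lineage genes were lower and 2 higher. EPF2, a peptide that limits the number of stomata, stood at 1.58, 1.46 and 0.913 CPM under ABA and 4.63, 5.35 and 3.3 CPM in mock (-1.74 ± 0.34), FMA, which sets guard cell fate, at 23.7, 18.4 and 14.8 CPM under ABA and 34.2, 35.7 and 42.3 CPM in mock (-0.98 ± 0.18), and AT4G31805 fell (-1.74 ± 0.28), while ICE1 rose by 0.48 ± 0.08; 1 was higher with library totals alone or without ABA replicate 1 or 2 or mock replicate 1 or 2. Of 6 guard cell genes 4 were lower and 1 higher. KAT1, the inward potassium channel that opens stomata, stood at 9.96, 8.96 and 9.66 CPM under ABA and 36.1, 31.8 and 37.1 CPM in mock (log2 change -1.88 ± 0.17, adjusted p = 2.14e-08), and GORK, the outward channel that closes them, at 33.1, 26.6 and 36.8 CPM under ABA and 13.2, 12.1 and 11.7 CPM in mock (log2 change 1.38 ± 0.16, adjusted p = 4.96e-07). The kinase gene HT1 (-0.98 ± 0.18) and MYB60 (-1.15 ± 0.20) fell. Of 15 wax genes 5 were higher (33.3%) and 3 lower (20%), beside 21.0% and 19.0% of all genes tested. CER1, an alkane synthesis gene, stood at 369, 319 and 419 CPM under ABA and 47.3, 60.8 and 60.3 CPM in mock (log2 change 2.72 ± 0.19, adjusted p = 6.86e-10), WSD1 rose by 3.85 ± 0.64, and CER4, of the alcohol branch, fell (-3.22 ± 0.49). Of 13 suberin genes 4 fell (30.8%) and 2 rose (15.4%), beside 19.0% and 21.0% of all genes tested. With library totals alone 6 fell and 1 rose, 7 fell without ABA replicate 3 or with the replicate block in the compared libraries, and 1 rose without ABA replicate 1 or mock replicate 2. KCS2 rose by 1.86 ± 0.23, while CYP86B1 (-1.56 ± 0.40), KCS20 (-0.64 ± 0.12) and CYP86A1 (-1.42 ± 0.40) fell, the last losing its call without mock replicate 3 (adjusted p = 0.0526).

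Few genes of the 2 photosynthesis lists were called, beside 40.0% of all genes tested. The lists do not hold CA1 and FNR2, which were called lower, as given above. No gene of 19 in the light-harvesting antenna was called, and of 22 genes for photosystems and the Calvin cycle 1, RBCS3B, fell, from 2000.3, 1836 and 1727 to 1146, 1217 and 1224 CPM (log2 change -0.63 ± 0.16, adjusted p = 0.00334). Their medians were 0.04 and -0.03, and the summed antenna level ran from 41182 to 44489 CPM under ABA and from 42657 to 43823 CPM in mock, the groups overlapping. In the fit to the compared libraries alone 1 antenna gene was called higher and 3 lower, and with the replicate block 2 and 3. The copies of RBCS and of the antenna genes are close in sequence, and reads could be split among them. Chlorophyll breakdown and senescence genes rose, 9 of 11, with none lower (median 0.89). The count higher was 7 with RLE factors or with DESeq2. It was 6 with library totals alone or with the replicate block in the compared libraries, and 6 to 8 with single libraries left out. NAC6 (ORE1), a regulator of leaf senescence, stood at 32.4, 52.1 and 61.2 CPM under ABA and 12.2, 8.39 and 7.44 CPM in mock (log2 change 2.38 ± 0.23, adjusted p = 5.65e-08), ACD1, the oxygenase that opens the chlorophyll ring, at 177, 191 and 187 CPM under ABA and 77.7, 68.3 and 69.5 CPM in mock (1.37 ± 0.11), NYE1, which starts chlorophyll loss, at 33.7, 27.4 and 28.6 CPM under ABA and 14.1, 12.5 and 12.6 CPM in mock (1.2 ± 0.10), and AT4G11910 rose by 3.41 ± 0.37. In chlorophyll synthesis 1 of 13 was higher and 2 lower, PORA falling from 12.5, 14.1 and 10.4 to 1.72, 2.33 and 1.37 CPM (-2.76 ± 0.48). With library totals alone none was higher and 5 were lower. The other calls, G4 (higher) and PCB2 (lower), were both lost without ABA replicate 1 or 3 or mock replicate 2 or 3, and PCB2 also without mock replicate 1.

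Glucosinolates are sulfur-rich defence compounds of this plant family. Of 14 genes of aliphatic glucosinolate synthesis 11 were lower and none higher (median -2.54). The chain elongation genes MAM1, at 7.69, 8.31 and 14.5 CPM under ABA and 156, 125 and 117 CPM in mock (log2 change -3.71 ± 0.26, adjusted p = 8.84e-10), and IMS2, at 0.412, 0.146 and 0.228 CPM under ABA and 21.8, 17.8 and 18.8 CPM in mock (log2 change -6.15 ± 0.39, adjusted p = 7.17e-11), fell steeply. So did the core enzymes CYP79F2 (-4.32 ± 0.28) and CYP83A1, the latter from 94.6, 85.8 and 62.9 to 4.81, 5.61 and 7.91 CPM (-3.73 ± 0.24). All ABA libraries of these 4 lay far below their lowest mock library. In the indolic branch 2 of 8 were lower (25%, beside 19.0% of all genes tested), in every fit run, and 2 higher (25%, beside 21.0%). The 2 called higher, CYP79B2 and MYB34, both lost their calls with library totals alone and without mock replicate 1 or 2, and 1 of them did without ABA replicate 1 or 3 or mock replicate 3. CYP81F2, which modifies indolic glucosinolates, fell (-2.72 ± 0.48) and UGT74B1 (-0.56 ± 0.14). Among jasmonate and salicylate genes 4 of 11 fell (36.4%) and 2 rose (18.2%), beside 19.0% and 21.0% of all genes tested. The salicylate marker PR5 had 2 counts against 229, a ratio of 104 (28.5 to 866), LOX2 fell (-1.64 ± 0.27), OPR3 (-0.46 ± 0.10), and VSP1 rose by 1.69 ± 0.40. With library totals alone, or without ABA replicate 3 or mock replicate 2 or 3, 1 rose. In flavonoid synthesis 3 of 12 rose (25%) and 1 fell (8.33%), beside 21.0% and 19.0% of all genes tested. TT4 stood at 0.88 ± 0.25 on the log2 scale, and the anthocyanin regulator PAP1 rose from 0.269, 0.198 and 0.129 to 2.61, 1.89 and 2.21 CPM (3.45 ± 0.64).

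The genes mutated in pifq were themselves responsive in the wild type. Of 7 PIF family genes tested 6 rose and none fell (median 0.82). PIF3 stood at 109, 115 and 160.4 CPM under ABA and 46.3, 28.3 and 29.6 CPM in mock (log2 change 1.88 ± 0.24, adjusted p = 4.5e-06), PIL5 (PIF1) at 70.3, 73.9 and 76.5 CPM under ABA and 42.4, 43.5 and 47.1 CPM in mock (0.73 ± 0.10) and PIL6 (PIF5) at 319, 359.9 and 419 CPM under ABA and 219, 179 and 225 CPM in mock (0.82 ± 0.16). PIF4 rose less, by 0.44 ± 0.12. PIL2 had 34 counts under ABA and 2 in mock, a ratio of 18.7 (4.79 to 160.4). PIF4 was named after its values were seen. Of the flowering genes, AGL20 (SOC1), which promotes flowering, rose by 1.33 ± 0.11, and FLC, which delays it, by 1.1 ± 0.17. Clock genes had 2 of 15 higher and 1 lower, and each of these calls, RVE1, RVE8 and PRR7, was lost in several alternatives. Ribosomal protein genes had 27 of 108 lower (25%) and 5 higher (4.63%), beside 19.0% and 21.0% of all genes tested. The lower count reached 58 with library totals alone and ranged from 9 to 34 when single libraries were left out (14 without ABA replicate 1, 17 without ABA replicate 3, 16 without mock replicate 1 and 9 without mock replicate 2).

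**Figure D5:**
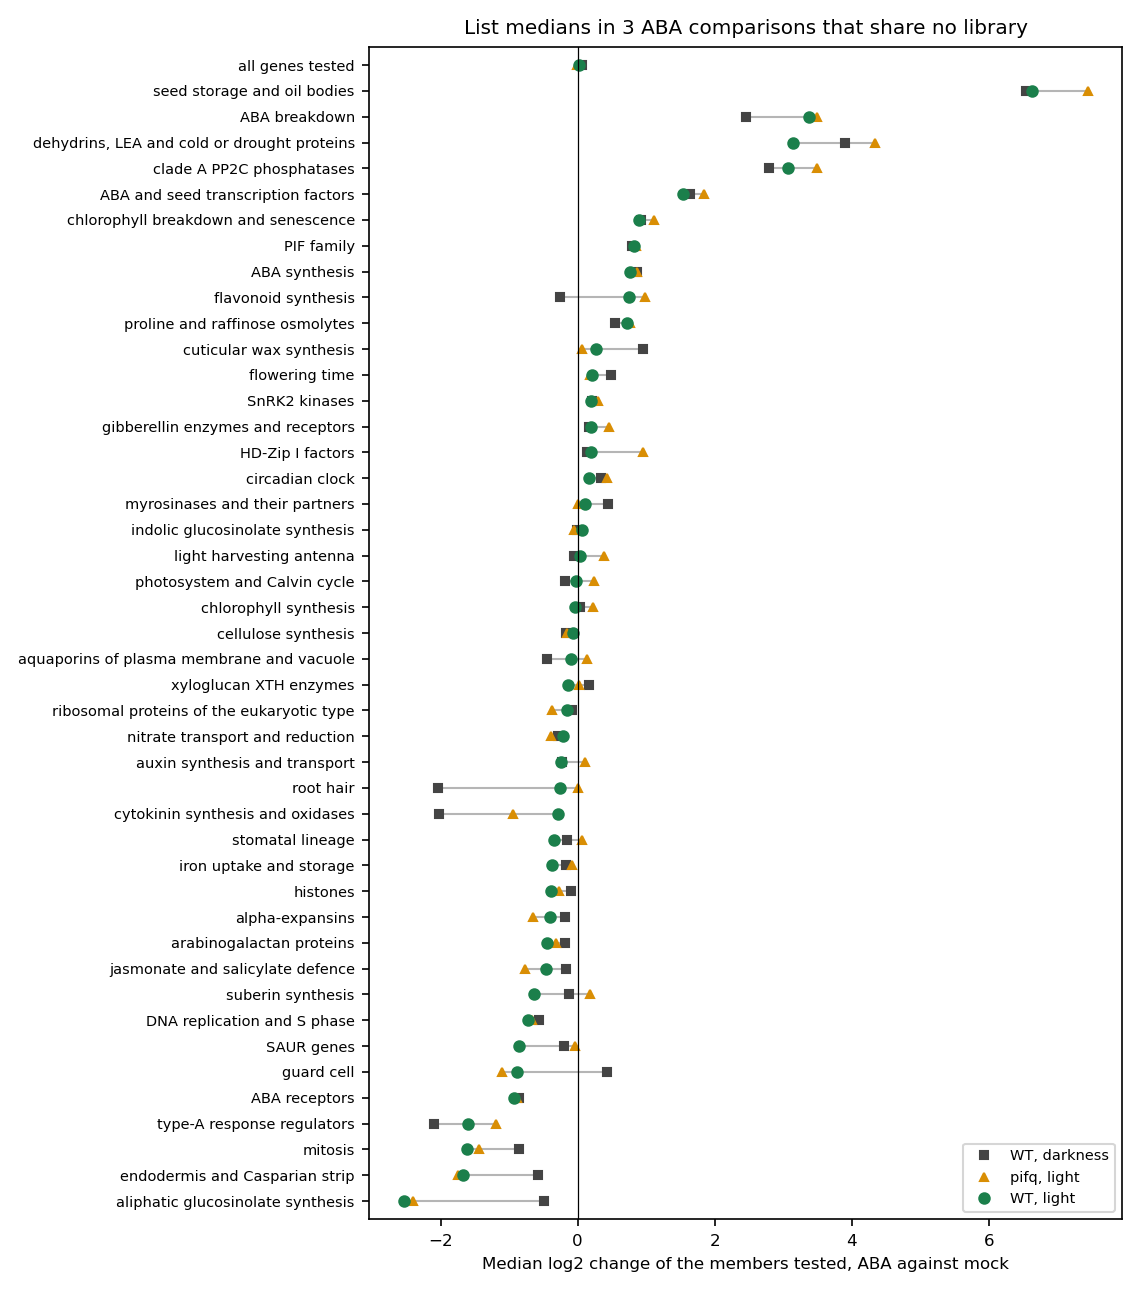
Median log2 change of each gene list under ABA in wild type in light, in wild type in darkness and in pifq in light, with all genes tested near 0. The root hair, guard cell, endodermis and aliphatic glucosinolate lists have wild-type medians in light that stand apart from those in darkness, with the pifq medians in light on the side of the wild type in light. Other lists do not, such as SAUR (-0.86 in wild type in light, -0.20 in darkness, -0.04 in pifq in light) and suberin (-0.64, -0.12 and 0.18).

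Response in light and response in darkness were compared by an interaction term, positive where the log2 change was higher in light. The term passed for 1226 genes upward (5.89%) and 1255 downward (6.03%). Of the 4380 genes that rose in light, 61.3% also rose in darkness (56.7% of the dark list), and of the 3947 that fell, 54.3% also fell there (58.9% of the dark list). In the dark-grown wild type 22.8% of genes rose and 17.5% fell. NCED3 changed by 2.34 in light and 0.19 in darkness (interaction 2.15, adjusted p = 0.00383). PYL4 fell further in light, -3.14 against -1.58 (interaction -1.56, 0.000208), and HAI1 rose further, 4.92 against 3.60 (interaction 1.32, 0.00285). CYP707A2 did as well, with 4.90 against 3.40 (interaction 1.5, 0.0018). FUS3 rose less in light, 1.81 against 4.24 (interaction -2.43, 0.0285).

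Wax synthesis differed by light for many members: 13 of 15 genes rose in darkness and 5 in light, and the interaction was negative and past the threshold for 10. MYB94, a wax regulator named after its values were seen, changed by 0.63 in light and 1.73 in darkness (interaction -1.1, 0.00153). CER1 went the other way, 2.72 against 1.74 (interaction 0.97, 0.0163). In the root hair list 8 of 10 fell in darkness and 2 in light, with a positive interaction for 6 and a negative one for GL2, -2.20 against -0.05 (interaction -2.15, 5.27e-05). The inward channel KAT1 fell in light (-1.88) and stood at 0.56 in darkness (interaction -2.44, 2.12e-06). CASP4 changed by -2.77 and -0.56 (interaction -2.21, 0.006), and SYP111 by -2.09 and -0.66 (interaction -1.43, 0.00172). Of 14 aliphatic glucosinolate genes the interaction was called positive for 1 and negative for 2. The growth lists went both ways. The interaction was positive for 9 and negative for 10 of 62 SAUR genes. It was positive for 2 and negative for 3 of 17 alpha-expansins, and positive for 5 and negative for 3 of 26 XTH genes. Of those with a negative term, EXPA1 changed by -1.88 in light and -0.15 in darkness (interaction -1.72, 2.94e-05), and the SAUR gene AT4G34770 by -3.35 and 0.17 (interaction -3.53, 4.91e-05).

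In pifq under the same light 23.7% of genes rose and 23.0% fell (46.7% in either direction). Of the genes that rose in the wild type, 81.2% also rose in pifq (72.1% of the pifq list), and of those that fell, 78.1% also fell there (64.2%). The interaction with genotype passed for 27 genes upward (0.130%) and 18 downward (0.0864%). Of all members of the 44 lists it passed for FUS3, SAG21, FAR1, SOT18 and ESM1. Each of the 12 single-library omissions moved the upward count by over 1.5 times: the counts ranged from 3 to 41 upward and from 1 to 33 downward over these omissions.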

How the data were processed

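The table that the authors deposited holds whole-number read counts per gene in 24 libraries, unnormalized, with unequal column sums. Per the labels, libraries were stranded, made from polyadenylated RNA and sequenced on DNBSEQ with 100-base reads from both ends. The submitters' processing notes list TAIR10, STAR, FastQC, SAMtools and DESeq2, without versions. The sources used here do not state the counting program, its strand setting or the annotation release, so overlapping and antisense genes may share reads. All 24 columns were mapped to samples by name (columns not used: 0).

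In R 4.3.3 with edgeR 4.0.16, 20828 genes kept by filterByExpr were fitted after TMM scaling. The robust quasi-likelihood model gave each of the 8 groups a coefficient over all 24 libraries, leaving 16 residual degrees of freedom. The contrasts were ABA against mock in wild type in light, wild type in darkness and pifq in light, and the interactions of ABA with light and with genotype. A gene was called at a Benjamini-Hochberg adjusted p under 0.05. The standard error is the size of the log2 change divided by the square root of the F statistic. The median biological coefficient of variation was 0.109, and replicates of the 2 light groups differed by more than counting error (chi-square over its degrees of freedom 6.35 to 15.3). Alternatives were size factors by relative log expression (RLE), library totals alone, no count filter, DESeq2 1.42.0, the compared libraries alone, a replicate block, and each library left out. The steps were tested on simulated data.

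A fold against a group with no counts uses 3 counts over the group as its floor, and with 1 to 3 counts the ratio is given with its exact 95% interval, for counting error only. The members, the 44 lists (830 distinct genes, of which those tested are counted in the text) and the naming rule were chosen with earlier results of these data known. Named genes are the 12 of lowest p in each direction that carry a symbol, average 5 CPM or more, show at least a 2-fold change and have groups apart, the 8 largest gains and losses in mean CPM, in each list up to 4 called members of lowest p with all members of the 6 core ABA lists, and the 5 of lowest p in each direction of each interaction. Other genes named were chosen after their values were seen, as was the choice of windows and motifs. Names and sequences are from RefSeq's TAIR10.1, in which 285 genes (0.775% of counts) were not matched. 1 item that the naming rule selects is not reported here.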

Additional observations from a re-analysis of the deposited data

Results flagged for a closer look

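Genes whose response to ABA in light differed from that in darkness, by the interaction term, with a light response that was the higher, were SRG1 (interaction 1.45; 3.36 in light, 1.91 in darkness), MHX, a magnesium exchanger (2.01; 1.25 and -0.76), UMAMIT22, a transporter (3.23; 2.23 and -1.01), HIPP22 (3.31; 1.3 and -2.01) and PUP4, a purine permease (2.32; -0.50 and -2.82). The first rose in both settings, MHX, UMAMIT22 and HIPP22 rose in light and fell in darkness, and PUP4 fell in both. The call of PUP4 in light itself was lost without ABA replicate 1 or mock replicate 3 (adjusted p = 0.0809 and 0.0619).

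The light response was the lower for LACS1 (interaction -2.22; -2.15 in light, 0.06 in darkness), KAT1 (-2.44; -1.88 and 0.56), TT5, chalcone isomerase of flavonoid synthesis (-1.86; 0.17 and 2.03), ENODL2 (-1.46; 0.69 and 2.16) and KCS5, a fatty acid elongase of waxes (-1.99; -1.22 and 0.76). Age and days of treatment differ between light and darkness with the light itself, and cannot be told apart from it.

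Between genotypes in light the interaction was positive for IOS1 (1.34; -2.94 in wild type, -4.28 in pifq), ACS7, an ethylene synthesis gene (2.18; 1.27 and -0.91), FLS2, the flagellin receptor (2.23; -0.72 and -2.94), DPL1 (0.85; 0.27 and -0.58) and ESM1 (1.61; 0.41 and -1.2). It was negative for AILP1 (-1.05; -0.03 and 1.02), FAR1 (-2.47; 0.37 and 2.83), SR1 (-1.08; 0.59 and 1.67), SOT18 (-0.59; 0.16 and 0.74) and HAT3 (-0.84; 0.04 and 0.89). ACS7 rose in wild type and fell in pifq. The interactions of IOS1, FLS2, ESM1, FAR1, SR1, SOT18 and HAT3 lost their calls in at least 1 alternative (adjusted p = 0.0505 to 0.148), HAT3 without any of 11 of the 12 libraries; those of ACS7, DPL1 and AILP1 kept theirs in every alternative run.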

How the results depend on the processing

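The counts of genes that rose and fell kept within 1.5 times of 4380 and 3947 in every alternative but library totals alone, which called 2901 higher (5381 lower); RLE gave 4035 and 4096, and DESeq2 4082 and 4114. Single libraries left out gave 3707 to 4042 higher and 3347 to 3579 lower, and at a 2-fold change 1279 to 1381 and 1959 to 2075. The interaction with light gave 889 to 1191 higher and 941 to 1319 lower under the same omissions. The interaction with genotype moved by over 1.5 times: against 27 higher and 18 lower, DESeq2 called 71 and 70, the compared libraries alone 7 and 4, library totals alone 31 and 11, and omissions 3 to 41 and 1 to 33; the cause was not tested. Of list counts 1019 were within 1.5 times and 125 moved; of values of named genes 3263 kept their side of the threshold, 135 lost it and 12 gained it, and none reversed.

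Deviations of same-numbered ABA and mock libraries correlated by 0.06, 0.17 and 0.00 over genes, and those of unlike numbers by -0.19 to 0.15. With so few libraries these values do not settle whether replicate numbers pair them. With the replicate block in the compared libraries 3911 genes were higher and 4049 lower, against 3755 and 3930 in those libraries without it. The genotype interaction called 45 and 54 with the block, against 7 and 4 without it. Groups of 3 were not screened for single distant libraries. Genes with few counts in a group are limited by counting error.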

Other observations

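Genes were also grouped by the product names of the annotation, a grouping made after the values were seen. This gave 359 families of at least 8 tested genes. The families named below were picked from the extremes of a ranking by share of members changed at least 2-fold. Over all genes tested 10.0% fell and 6.49% rose at least 2-fold. Among families of the cell surface, 18 of 26 cysteine-rich receptor kinases fell at least 2-fold and none rose. CRK25 stood at 0.755, 0.656 and 1.52 CPM under ABA and 11.8, 12.4 and 15.5 CPM in mock, and CRK41 at 1.1, 0.583 and 1.14 CPM under ABA and 13.3, 10.9 and 13.6 CPM in mock. The family median was -1.7 in light and -0.18 in darkness, and the light interaction was negative and called for 9 of the 26. Of 13 laccases, oxidases that act in lignin formation, 9 fell at least 2-fold, with LAC2 at 0.549, 0.291 and 0.609 CPM under ABA and 6.51, 3.96 and 4.98 CPM in mock and LAC7 at 31.2, 33.7 and 42.1 CPM under ABA and 95.5, 99 and 97.5 CPM in mock. Of 19 dirigent-like genes, which steer the coupling of lignin precursors, 12 fell as much, and of 9 SKU5-similar genes, wall proteins related to laccases, 7 did. The groups of CRK25, CRK41, LAC2 and LAC7 did not overlap, as was so for 96.7% of all genes called.

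NF-YA genes, subunits of a CCAAT-binding factor, were called higher in 9 of 10 cases, 5 of them by at least 2-fold. Of all genes tested 21.0% were called higher, and 6.49% by at least 2-fold. NF-YA10 stood at 3.57, 5.54 and 4.49 CPM under ABA and 0.537, 0.595 and 0.712 CPM in mock and NF-YA2 at 30.6, 30.6 and 28.6 CPM under ABA and 7.85, 7.0 and 6.66 CPM in mock. Of 11 tested genes of the SWEET sugar transporter family 4 rose and 2 fell at least 2-fold. SWEET13 stood at 25.5, 17.6 and 28.5 CPM under ABA and 0.604, 0.727 and 0.841 CPM in mock and SWEET4 at 24.5, 29.4 and 21.7 CPM under ABA and 1.14, 1.06 and 1.16 CPM in mock, both higher under ABA. The 2 that fell were SWEET16, at 11.8, 9.47 and 11.7 CPM under ABA and 26.5, 28.2 and 25.1 CPM in mock, and SWEET3 (log2 change -2.69). No gene family was tested as a set.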
